A study of Mus musculus with 36 samples.

Results

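Lysosomal hydrolases, lysosomal membrane proteins and subunits of the vacuolar proton pump (V-ATPase) were followed in mouse splenic dendritic cells (DCs) after injection of poly IC, a synthetic double-stranded RNA. A list of 37 genes was matched by symbol to the array annotation, and a gene was kept when a probe of it was detected (detection p under 0.05) on 3 or more arrays. By this rule 34 genes were measured, of 9606 genes on the arrays that passed the same detection rule. The detection rule used no difference between groups, but genes and lists were chosen with earlier results of these data known. The 34 genes were 16 hydrolases, 7 membrane proteins and lipid carriers, and 11 V-ATPase genes. Cd68, Npc1 and Atp6v0c, also listed, had no probe under those symbols and were not analysed here.

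Lysosomes are acidic compartments in which hydrolases cut glycans, lipids and proteins taken up from outside the cell or delivered by autophagy. The V-ATPase joins a membrane sector, V0, through which protons pass, to a cytosolic sector, V1, which splits ATP, and so sets the acid pH at which the hydrolases work, while heavily glycosylated membrane proteins such as LAMP1 and LAMP2 line the inner face of the compartment. In DCs the same compartments process engulfed antigen for loading on MHC class II molecules, and DCs are known to keep lysosomal proteolysis low compared with macrophages and to acidify these compartments further as they mature.

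RNA of DCs sorted from spleen as CD11chi CD3- DX5- B220- cells, C57BL/6 background, was hybridised to 36 Illumina mouseRef-8 bead arrays, and the labels name 6 groups. Poly IC (50 µg, intraperitoneally) was given to mixed bone marrow chimeras made, per the methods, from WT and knockout marrow, so that WT and knockout DCs were exposed to the same host. They were separated by CD45.2. The knockout DCs were either PRR-/- (lacking MDA5 and TLR3, sensors of double-stranded RNA) or IFNAR-/- (lacking the type I interferon receptor). Unstimulated DCs were on 9 arrays. At 4 h WT DCs had 8, PRR-/- DCs 5 and IFNAR-/- DCs 5 arrays, and at 14 h WT DCs had 6 and IFNAR-/- DCs 3, with no PRR-/- group at that time. The labels give the unstimulated samples no genotype, and the study describes its negative controls as pooled from chimeras given PBS and from PRR-/- mice given poly IC, so that these samples may differ from one another in kind. Mice were 7 to 8 weeks old and each sample pooled 6 of them, but the labels do not say which samples were sorted separately, and p-values measure only the spread between samples. The labels do not say which of the chimeras each WT sample came from.

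Between 10428 and 12326 probes were detected per array (median 11494.5). In the unstimulated, PRR-/- 4 h and IFNAR-/- 4 h groups, the log2 differences between replicates 1 and 2 had a small spread. Their median absolute deviation, scaled to match an SD, was 0.0964 to 0.107 over the 8174 probes detected on all arrays. It was 0.152 to 0.698 in the 99 other within-group pairs, and each of the 3 close pairs was averaged. Counted as 1 sample each, they left 33 samples (8, 8, 4, 4, 6 and 3 in the order above). At 4 h the samples fell into 3 sets that resembled each other across genotypes, read from the values and not from the labels, and unstimulated replicates 6 to 9 and all 14 h samples lay outside them. The MDA5 gene, Ifih1, had a detected signal on 8 of 8 WT and 0 of 5 PRR-/- arrays at 4 h, and Tlr3 on 8 of 8 and 1 of 5. The Ifnar1 probe was detected on 0 of 36 arrays and checks nothing. The DC markers Itgax and Zbtb46 were detected on all 36 arrays, and the markers Cd5l (red pulp macrophages) and Ccr2 (monocytes) on none. Other markers of these 2 cell types did give signal, with sums of up to 22280 for red pulp macrophages and 41070 for monocytes. The silent Cd5l and Ccr2 probes therefore do not show that the sorted cells were free of either type. In RNA of sorted cells, fewer cells of a type and less RNA per cell cannot be told apart.

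Promoter sequence from RefSeq (GRCm38.p6; 250 bases before to 50 after the gene start) was matched to 30 of the 34 genes, and a few stretches are shown because they hold the words most often discussed for lysosomal and for interferon-driven genes. The palindrome TCACGTGA is the core of the CLEAR element, to which TFEB, an activator of lysosomal genes, binds. The other word, GAAA, any 2 bases and GAAA again, is the core of the interferon-stimulated response element, and reads TTTC, 2 bases and TTTC on the opposite strand, as in both examples. Capitals mark the match, and each line runs 5′ to 3′ on the gene's strand.
Mcoln1 (chr8:3500442-3500511, + strand): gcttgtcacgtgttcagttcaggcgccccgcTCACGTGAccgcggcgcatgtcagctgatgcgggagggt
Atp6v1a (chr16:44139353-44139422, - strand): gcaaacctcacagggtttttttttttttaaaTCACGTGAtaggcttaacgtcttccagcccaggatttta
Lamp1 (chr8:13158995-13159066, + strand): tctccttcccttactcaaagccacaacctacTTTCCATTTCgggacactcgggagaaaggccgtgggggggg
Atp6v1d (chr12:78861829-78861888, - strand): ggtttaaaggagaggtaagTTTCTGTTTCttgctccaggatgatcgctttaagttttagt
The matches began 46, 132, 135 and 231 bases before the start. Searched on both strands, TCACGTGA stood in 4 of the 30 genes (Gla, Mcoln1, Atp6v0d1 and Atp6v1a; 13.3%) and in 1.12% of the windows of 27025 genes. The shorter CACGTG, which TCACGTGA contains, stood in 9 of 30 (30.0%) against 8.09%, and the longer form with a G before and a C after TCACGTGA in 0 against 0.37%. The response element core stood in 2 (Lamp1 and Atp6v1d, 6.67%) against 3.99%. A match describes letters only and is no evidence of binding.

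Levels are given below as log2 normalized signal, and a difference as the difference of group means of that signal ± its standard error, from 1 limma model over all 6 groups; "rose" and "fell" mean a Benjamini-Hochberg adjusted p under 0.05 over the 9606 genes. In WT DCs at 4 h most of the hydrolases had fallen and a small number of membrane and pump genes had risen. Compared with unstimulated DCs 9 of the 34 genes rose and 17 fell, where 16.9% of all genes rose and 29.6% fell. Of the 16 hydrolases 12 fell and 3 rose, with a median difference of -0.71, against -0.02 over all genes tested. One of the 12 was Fuca1, whose fall of 0.06 compares values near the floor. Of the 7 membrane proteins and carriers 3 rose and 1 fell (median 0.05), and of the 11 V-ATPase genes 3 rose and 4 fell (median -0.07). At least 2-fold, Lamp2, Npc2 and Atp6v1d rose (4.8% of all genes) and Gusb, Manba, Man2b1, Lipa and Hexa fell (2.39%). The groups did not overlap for 3 genes that were higher and 6 that were lower (6.91% and 11% of all genes). All 26 changed genes kept their direction within each of the 3 sets of samples. The split between directions moved with the scaling. Median scaling gave 11 that rose and 12 that fell, and no normalization between arrays gave 4 and 23, the median of all genes then lying at 0.135 and -0.439. Markers of conventional DCs also moved in this comparison: 6 of 12 fell (median -0.53), and their summed signal was 13790 to 19440 in unstimulated and 9623 to 13090 in WT samples at 4 h, and the 3 erythroid markers tested all rose (sums 539.1 to 1551 and 2157 to 4220). Their part in the result was not tested.

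PRR-/- DCs at 4 h gave a like count, with 8 genes that rose and 14 that fell against the same unstimulated samples (13.1% and 24.2% of all genes), and in IFNAR-/- DCs 2 rose and 12 fell (6.97% and 11%). The hydrolases accounted for 10 of the 14 and 10 of the 12 that fell. Their median difference was -0.79 in PRR-/- and -0.49 in IFNAR-/- DCs. In PRR-/- DCs Lamp2, Npc2 and Atp6v1d again rose at least 2-fold and Gusb, Man2b1, Manba and Lipa fell as much (4.86% and 2.42% of all genes). In IFNAR-/- DCs Atp6v0a1 rose and Ppt1, Man2b1 and Lipa fell at least 2-fold (1.53% and 1.43%). Samples did not overlap the unstimulated ones for 4 genes higher and 9 lower in PRR-/- DCs (7.94% and 12.8% of all genes), and for 2 and 8 in IFNAR-/- DCs (4.27% and 6.35%). For PRR-/- DCs median scaling gave 10 and 11, no normalization gave 4 and 19, and leaving out unstimulated replicates 6 to 9 gave 5 and 11. The IFNAR-/- count leaned on the unstimulated samples outside the sets and on single samples: 1 rose and 5 fell without unstimulated replicates 6 to 9, and 9 changed in all without IFNAR-/- replicate 5. Within the sets the 22 genes changed in PRR-/- DCs kept their direction except 1 in the first set, and the 14 changed in IFNAR-/- DCs except 1 in the first set. The sets again hold samples on which the genes were called. Red pulp macrophage markers moved in the PRR-/- comparison, where 10 of 16 rose and 2 fell. Their sums were 6456 to 9483 in unstimulated, 14240 to 22280 in PRR-/-, 7769 to 15110 in WT and 7208 to 10390 in IFNAR-/- samples at 4 h. Cd5l was undetected in every group. The part of these markers in the result was not tested.

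At 14 h the largest rises in WT DCs were those of Cd63, Lgmn, Npc2 and Lamp1, while most hydrolases were still below the unstimulated level. In all 8 genes rose and 16 fell against unstimulated DCs (19.6% and 27.7% of all genes), among them 11 hydrolases that fell, Fuca1 again included, and 3 that rose. Past 2-fold, Cd63, Lgmn, Npc2, Lamp1, Atp6v0a1 and Gaa rose (6.2% of all genes) and Ppt1, Arsb, Gusb and Hexa fell (4.77%). In IFNAR-/- DCs at 14 h 8 rose and 1, Ppt1, fell (5.32% and 5.41%), 9 and 0 after median scaling and 7 and 0 without normalization; only 4 changed when IFNAR-/- 14 h replicate 1 was left out. In IFNAR-/- DCs Cd63 and Lamp1 rose and Ppt1 fell by at least 2-fold (1.68% and 0.802% of all genes). Without overlap with the unstimulated samples were 7 higher and 4 lower genes in WT DCs (9.45% and 8.62%), and 7 and 3 in IFNAR-/- DCs (6.12% and 4.88%). The median difference of the hydrolases from unstimulated DCs was -0.50 in WT and 0.19 in IFNAR-/- DCs at 14 h. Taken per sample, the hydrolases' median lay between -0.92 and -0.57 in WT samples at 4 h, -0.82 and -0.46 in PRR-/-, -0.53 and -0.37 in IFNAR-/- at 4 h, -0.74 and -0.22 in WT at 14 h and -0.15 and 0.26 in IFNAR-/- at 14 h, relative to the unstimulated mean (unstimulated samples -0.09 to 0.10). Every stimulated sample other than those of IFNAR-/- DCs at 14 h was thus below every unstimulated one in this measure. The same medians of the membrane group and of the V-ATPase genes lay nearer 0, at -0.27 to 0.50 and -0.23 to 0.34 over all stimulated samples. Monocyte markers moved at 14 h: in WT DCs 3 of 6 fell and 1 rose (sums 1154 to 6851, against 8154 to 21210 in unstimulated samples), and in IFNAR-/- DCs 5 rose (35630 to 41070). Red pulp macrophage markers gave 4 that rose and 6 that fell of 16 in WT and 7 and 1 in IFNAR-/- DCs, and 6 of 10 neutrophil markers rose in IFNAR-/- DCs. Their part in the result was not tested.

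**Figure D1:**
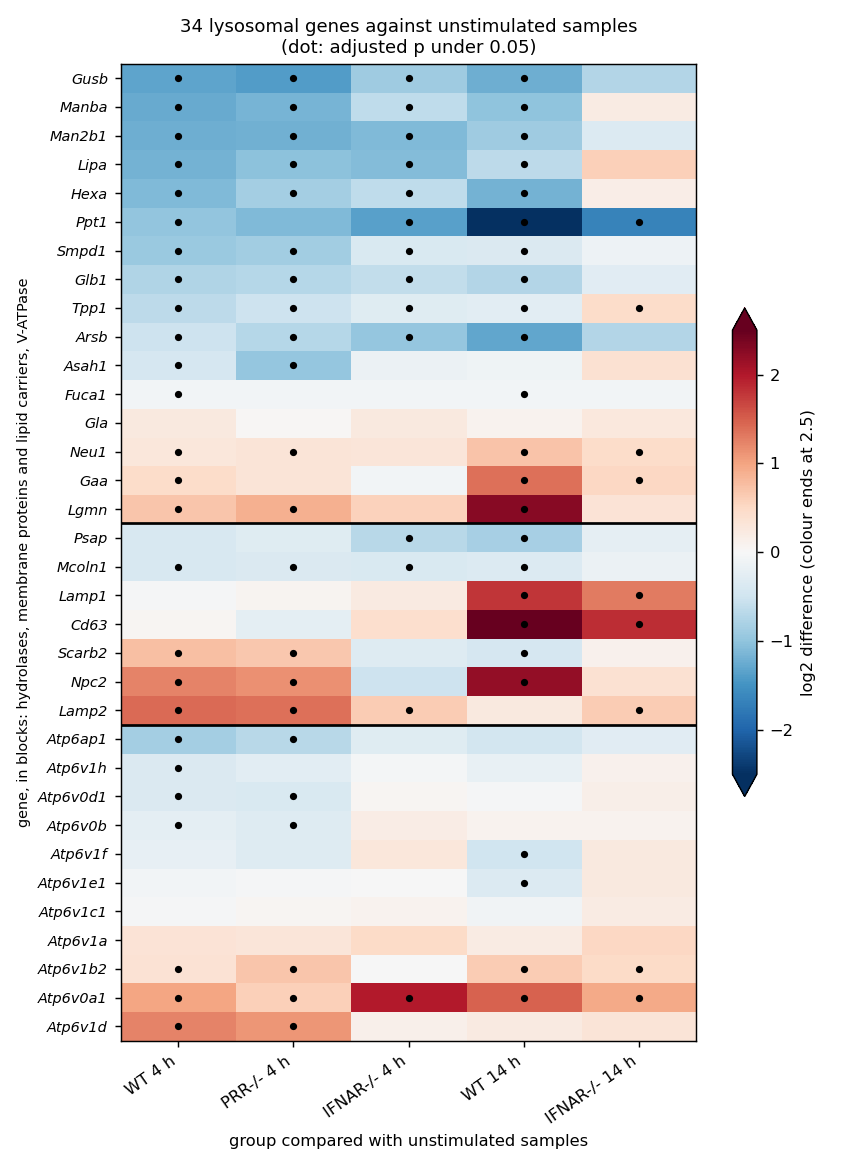
Log2 difference of each of the 34 genes (rows, in blocks of hydrolases, membrane proteins and lipid carriers, and V-ATPase) from unstimulated DCs in the 5 stimulated groups (columns); red is higher, blue lower, and a black dot marks an adjusted p under 0.05. The upper block is mostly blue at 4 h in all genotypes and in WT DCs at 14 h, where 11 of 16 hydrolases fell, whereas 1 of 16 fell in IFNAR-/- DCs at 14 h; the colour ends at 2.5, which Cd63 (3.37) and Ppt1 (-2.57) passed in WT DCs at 14 h.

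Among the hydrolases, Man2b1, Manba, Hexa, Gusb and Glb1 are exoglycosidases that strip sugars from glycoproteins and glycolipids. By the probes used, all of them fell at 4 h in all 3 genotypes. Man2b1, lysosomal alpha-mannosidase, lay at 13.60 to 13.87 (median 13.70) in unstimulated and at 12.23 to 12.75 (median 12.46) in WT samples at 4 h. At 4 h its levels were 12.77, 12.15, 12.63 and 12.52 in PRR-/- and 12.76, 12.52, 12.56 and 12.57 in IFNAR-/- samples. No sample at 4 h reached the lowest unstimulated one. Man2b1 fell by 1.22 ± 0.14 on the log2 scale in WT DCs (2.33-fold, adjusted p = 3.93e-08), with differences of -1.20 ± 0.17 (adjusted p = 2.71e-06) in PRR-/- and -1.11 ± 0.17 (adjusted p = 2.65e-05) in IFNAR-/- DCs. At 14 h it spanned 12.21 to 13.57 (median 12.76) in WT and 13.36, 13.57 and 13.21 in IFNAR-/- samples, with the WT samples spread over more than a log2 unit and all 9 samples below the unstimulated range. The fall in WT DCs was -0.90 ± 0.15 (adjusted p = 1.57e-05) at 14 h, and the difference in IFNAR-/- DCs was -0.33 ± 0.19 (adjusted p = 0.341), which did not pass.

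Manba, beta-mannosidase, took 9.14 to 9.55 (median 9.40) in unstimulated samples, 7.67 to 8.59 (median 8.09) in WT samples at 4 h and 7.93 to 8.81 (median 8.40) in WT samples at 14 h. Its levels were 8.59, 7.64, 8.36 and 8.27 in PRR-/- and 8.87, 8.89, 8.72 and 8.50 in IFNAR-/- samples at 4 h, and 9.72, 9.74 and 9.31 in IFNAR-/- samples at 14 h. All samples at 4 h and the WT samples at 14 h were below the unstimulated range, and the IFNAR-/- samples at 14 h were above every WT sample of that time. The differences from unstimulated DCs were -1.27 ± 0.14 (2.41-fold, adjusted p = 3.35e-08) in WT, -1.17 ± 0.18 (adjusted p = 6e-06) in PRR-/- and -0.64 ± 0.18 (adjusted p = 0.0109) in IFNAR-/- DCs at 4 h. IFNAR-/- DCs exceeded WT DCs by 0.63 ± 0.18 (adjusted p = 0.00837) at 4 h and by 1.20 ± 0.21 (2.3-fold, adjusted p = 3.56e-05) at 14 h.

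Hexa, the alpha subunit of beta-hexosaminidase, which degrades GM2 ganglioside, lay at 9.94 to 10.21 (median 10.07) in unstimulated samples. It stood at 8.69 to 9.20 (median 8.98) in WT samples at 4 h, and at 9.41, 8.93, 9.09 and 9.43 in PRR-/- and 9.40, 9.52, 9.40 and 9.46 in IFNAR-/- samples. At 14 h WT samples held 8.34 to 9.66 (median 8.88) and IFNAR-/- samples 10.34, 10.55 and 9.85. The 4 h samples and the WT samples at 14 h lay below all unstimulated ones, and at each time the IFNAR-/- samples lay above all WT ones. Hexa fell in WT DCs at 4 h (-1.10 ± 0.14, 2.14-fold, adjusted p = 1.11e-07) and 14 h (-1.19 ± 0.15, 2.27-fold, adjusted p = 1.15e-07), while IFNAR-/- DCs at 14 h differed from unstimulated by 0.17 ± 0.18 (adjusted p = 0.702). The excess of IFNAR-/- over WT DCs was 0.47 ± 0.17 (adjusted p = 0.0353) at 4 h, which did not pass with the replicate number as a block or with no filter on dim probes, and 1.36 ± 0.19 (2.57-fold, adjusted p = 2.36e-06) at 14 h.

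Gusb, beta-glucuronidase, ranged from 11.61 to 12.97 (median 12.43) in unstimulated, 10.72 to 11.56 (median 10.99) in WT 4 h and 10.70 to 11.74 (median 10.96) in WT 14 h samples. The other groups held 11.51, 10.23, 10.79 and 11.37 (PRR-/-, 4 h), 11.73, 11.33, 11.39 and 11.46 (IFNAR-/-, 4 h) and 11.65, 11.83 and 11.45 (IFNAR-/-, 14 h). WT and PRR-/- samples at 4 h were below the lowest unstimulated sample, whereas the IFNAR-/- samples overlapped the unstimulated range at its lower end. The differences from unstimulated DCs were -1.33 ± 0.19 (2.51-fold, adjusted p = 1.54e-06) in WT and -1.39 ± 0.23 (2.62-fold, adjusted p = 2.54e-05) in PRR-/- DCs, -0.89 ± 0.23 (adjusted p = 0.00732) in IFNAR-/- DCs at 4 h and -1.23 ± 0.21 (2.34-fold, adjusted p = 1.45e-05) in WT DCs at 14 h. Further Gusb probes gave -0.86 to -0.65 in WT and -0.90 to -0.61 in PRR-/- DCs at 4 h, where 1 passed in each. In IFNAR-/- DCs at 4 h they gave -0.69 to -0.45 and none passed. In WT DCs at 14 h they gave -1.11 to -0.70 and 2 passed. Glb1, beta-galactosidase, fell in the same 4 groups as the Gusb probe used (differences -0.76, -0.71, -0.61 and -0.72). Neu1, sialidase, went the other way: it rose by 0.29 in WT and 0.33 in PRR-/- DCs at 4 h, and by 0.71 in WT and 0.46 in IFNAR-/- DCs at 14 h. Gla, alpha-galactosidase, passed in none of the 5 comparisons with unstimulated DCs (range 0.02 to 0.27). Fuca1, alpha-fucosidase, was detected on 5 of 9 unstimulated arrays and on at most 1 array of any other group, so that its differences of -0.06 to -0.08 compare values at or near the floor.

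Smpd1 and Lipa, which degrade lipids, also fell at 4 h in all 3 genotypes. Smpd1, acid sphingomyelinase, was at 8.09 to 8.52 (median 8.31) in unstimulated samples and at 6.99 to 7.58 (median 7.42) in WT samples at 4 h. PRR-/- samples held 7.72, 7.30, 7.40 and 7.36 and IFNAR-/- samples 8.02, 8.07, 7.95 and 7.69 at 4 h. All of these were below the unstimulated range, and every IFNAR-/- sample was above every WT sample. The fall was -0.93 ± 0.083 (1.91-fold, adjusted p = 2.94e-10) in WT, -0.86 ± 0.10 (adjusted p = 1.12e-07) in PRR-/- and -0.38 ± 0.10 (adjusted p = 0.00917) in IFNAR-/- DCs, with IFNAR-/- above WT DCs by 0.56 ± 0.10 (adjusted p = 0.0001). Further Smpd1 probes gave -0.43 to -0.05 in WT DCs, of which 1 passed. For IFNAR-/- minus WT DCs they gave 0 to 0.13 and none passed. By 14 h WT samples had 7.72 to 8.18 (median 7.94) and IFNAR-/- samples 8.33, 8.15 and 8.04, and the groups overlapped.

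Lipa, lysosomal acid lipase, which frees cholesterol and fatty acids from lipoprotein lipids, lay at 7.59 to 9.45 (median 9.20) in unstimulated, 7.12 to 8.03 (median 7.90) in WT 4 h and 7.61 to 8.98 (median 8.20) in WT 14 h samples. In PRR-/- and IFNAR-/- samples at 4 h it was 7.22, 8.10, 8.42 and 7.91 and 7.28, 8.13, 8.13 and 7.92, and in IFNAR-/- samples at 14 h 9.20, 9.60 and 9.83. The samples of the first set were the lowest of each group at 4 h, and of the unstimulated group, so that the groups overlapped; the IFNAR-/- samples at 14 h exceeded every WT sample of that time. Lipa differed from unstimulated DCs by -1.18 ± 0.24 (2.27-fold, adjusted p = 0.000194) in WT, -1.03 ± 0.30 (adjusted p = 0.00692) in PRR-/- and -1.09 ± 0.30 (adjusted p = 0.0102) in IFNAR-/- DCs at 4 h, and IFNAR-/- exceeded WT DCs by 1.25 ± 0.35 (2.37-fold, adjusted p = 0.00556) at 14 h.

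Ppt1, palmitoyl-protein thioesterase, which removes fatty acids from proteins, had the largest spread of the 34 genes in WT DCs at 14 h, with an SD of 1.31. It lay at 11.43 to 13.09 (median 11.99) in unstimulated, 10.41 to 11.78 (median 11.09) in WT 4 h and 8.36 to 11.15 (median 9.13) in WT 14 h samples. Its levels were 11.69, 10.22, 10.65 and 11.36 in PRR-/- and 11.54, 9.96, 10.28 and 11.16 in IFNAR-/- samples at 4 h, and 10.44, 10.93 and 9.92 in IFNAR-/- samples at 14 h. All 14 h samples were below the unstimulated range, and WT replicates 2, 3 and 6 at 14 h were lower than replicates 1, 4 and 5. Ppt1 fell in WT DCs at 14 h (log2 difference -2.57 ± 0.41, 5.94-fold, adjusted p = 6.56e-06) and in IFNAR-/- DCs (-1.66 ± 0.51, 3.16-fold, adjusted p = 0.0335). At 4 h the differences of -0.99 ± 0.38 (adjusted p = 0.033) in WT and -1.36 ± 0.46 (adjusted p = 0.0404) in IFNAR-/- DCs passed and that of -1.11 ± 0.46 (adjusted p = 0.06) in PRR-/- DCs did not. Arsb, arylsulfatase B, which acts on dermatan sulfate, was likewise uneven in WT samples at 14 h, at 8.27 to 10.04 (median 8.96), against 10.00 to 10.80 (median 10.35) in unstimulated and 9.35 to 10.11 (median 9.91) in WT 4 h samples. Its levels were 9.91, 9.74, 9.66 and 9.22 (PRR-/-) and 9.50, 9.44, 9.69 and 8.90 (IFNAR-/-) at 4 h and 9.57, 9.94 and 9.32 (IFNAR-/-) at 14 h, all below the unstimulated range, which the WT groups overlapped. Arsb fell in WT DCs at 14 h (log2 difference -1.31 ± 0.22, 2.48-fold, adjusted p = 1.65e-05) and in all 3 groups at 4 h (-0.52 to -0.96); a second probe gave a difference of 0.0031 in WT DCs at 4 h and -0.14 at 14 h, of which the latter passed.

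Of the remaining hydrolases, Tpp1, a tripeptidyl peptidase, fell in the same 4 groups as Man2b1 (differences -0.65, -0.51, -0.31 and -0.25) and rose by 0.47 in IFNAR-/- DCs at 14 h. Its signal in WT DCs at 4 h was near the floor, detected on 7 of 8 arrays. Asah1, acid ceramidase, fell in WT and PRR-/- DCs at 4 h (-0.41 and -0.97), but its second kept probe gave 0.33 in WT DCs, so the probes did not share a direction. Gaa and Lgmn rose instead. Gaa, the alpha-glucosidase that degrades glycogen, took 8.00 to 8.78 (median 8.55) in unstimulated, 8.53 to 9.13 (median 9.01) in WT 4 h and 9.50 to 10.22 (median 9.93) in WT 14 h samples, where it lay above every sample of both. Its levels were 8.69, 9.23, 8.92 and 8.42 in PRR-/- and 8.52, 8.66, 8.44 and 8.09 in IFNAR-/- samples at 4 h and 9.11, 9.05 and 8.87 in IFNAR-/- samples at 14 h, the last above all unstimulated and below all WT samples of that time. The rise in WT DCs was 0.45 ± 0.12 (adjusted p = 0.00307) at 4 h, a call whose direction turned without normalization between arrays (-0.19), and 1.39 ± 0.13 (2.61-fold, adjusted p = 1.38e-09) at 14 h. IFNAR-/- DCs were lower than WT DCs, with differences of -0.52 ± 0.15 (adjusted p = 0.00955) and -0.87 ± 0.17 (1.83-fold, adjusted p = 0.000241) at the respective times.

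Lgmn, legumain, an asparaginyl endopeptidase that also cuts antigens and the MHC class II invariant chain, showed the largest gap between genotypes at 14 h of the 34 genes. It was at 10.13 to 11.37 (median 10.82) in unstimulated, 11.31 to 11.85 (median 11.46) in WT 4 h and 12.35 to 14.35 (median 12.83) in WT 14 h samples. Levels of 11.77, 11.73, 11.70 and 11.49 were found in PRR-/- and 11.71, 11.03, 11.24 and 11.46 in IFNAR-/- samples at 4 h, and 11.10, 11.37 and 10.90 in IFNAR-/- samples at 14 h. The WT samples at 14 h exceeded every sample of the other 5 groups, while the IFNAR-/- samples at 14 h overlapped the unstimulated ones. Lgmn rose in WT DCs by 0.70 ± 0.20 (adjusted p = 0.00472) at 4 h and 2.28 ± 0.21 (4.85-fold, adjusted p = 9.65e-10) at 14 h, and in PRR-/- DCs by 0.88 ± 0.24 (adjusted p = 0.00488). In IFNAR-/- DCs the differences of 0.57 ± 0.24 (adjusted p = 0.114) at 4 h and 0.33 ± 0.27 (adjusted p = 0.569) at 14 h did not pass, and IFNAR-/- minus WT was -1.94 ± 0.28 (3.85-fold, adjusted p = 3.81e-06) at 14 h.

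**Figure D2:**
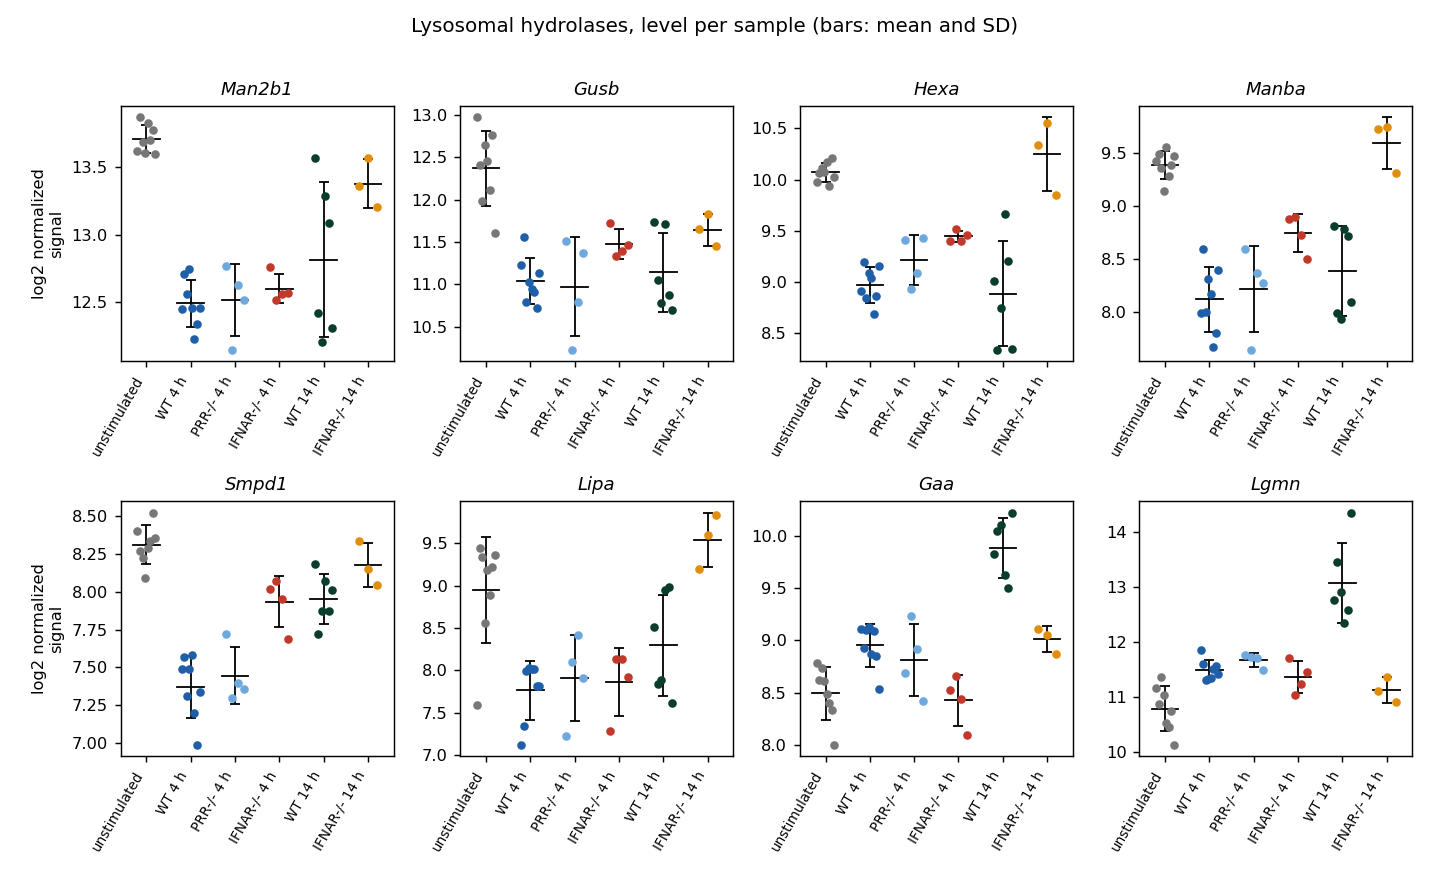
Log2 normalized signal (vertical axes, a scale of its own in each panel) of 8 hydrolases in every sample (dots) of the 6 groups, with the mean and SD in black. In the panels of Man2b1, Hexa, Manba and Smpd1 all 4 h samples lie below the unstimulated ones, and in those of Gaa and Lgmn the 6 WT samples at 14 h lie above all unstimulated ones.

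Among the membrane proteins and lipid carriers, Lamp2 and Scarb2 rose in WT DCs at 4 h, Cd63 and Lamp1 at 14 h, and Npc2 at both times. Lamp2, a glycoprotein of the lysosomal membrane with roles in fusion with autophagosomes, lay at 10.87 to 11.89 (median 11.41) in unstimulated and 12.67 to 13.02 (median 12.81) in WT samples at 4 h. PRR-/- samples held 12.69, 13.13, 12.75 and 12.63 and IFNAR-/- samples 12.05, 12.00, 12.02 and 12.14 at 4 h. All were above the unstimulated range, and the IFNAR-/- samples were below every WT sample. Lamp2 rose by 1.41 ± 0.14 (2.66-fold, adjusted p = 3.83e-09) in WT, 1.38 ± 0.18 (2.61-fold, adjusted p = 3.69e-07) in PRR-/- and 0.64 ± 0.18 (1.56-fold, adjusted p = 0.0102) in IFNAR-/- DCs at 4 h. At 14 h WT samples were back at 11.28 to 11.87 (median 11.74) and IFNAR-/- samples were spread over 12.56, 12.23 and 11.37, both overlapping the unstimulated samples, with differences of 0.24 ± 0.15 (adjusted p = 0.229) and 0.64 ± 0.20 (adjusted p = 0.0314), of which the second passed. That call was lost without IFNAR-/- 14 h replicate 1 (0.38) or 2 (0.55), or without unstimulated replicate 6 (0.60), 7 (0.56) or 8 (0.61). IFNAR-/- minus WT was -0.77 ± 0.18 (1.71-fold, adjusted p = 0.00123) at 4 h, and the change of WT DCs from 4 to 14 h was -1.17 ± 0.15 (2.25-fold, adjusted p = 5.69e-07). Its 3 other probes gave a rise of 1.42 to 1.68 in WT DCs at 4 h. For IFNAR-/- minus WT DCs they gave -1.22 to -0.88 at 4 h, where all 3 passed, but -0.70 to 0.35 at 14 h, where the probes did not share a direction. The rise in IFNAR-/- DCs at 14 h passed for none of them (0.06 to 0.75).

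Scarb2, also called LIMP-2, which carries glucocerebrosidase to the lysosome, took 8.77 to 9.66 (median 9.03) in unstimulated, 9.26 to 10.17 (median 9.81) in WT 4 h and 8.50 to 8.99 (median 8.59) in WT 14 h samples. It was at 9.30, 10.12, 9.72 and 9.77 in PRR-/- and 8.42, 8.84, 8.80 and 8.90 in IFNAR-/- samples at 4 h, and at 9.22, 9.13 and 9.14 in IFNAR-/- samples at 14 h. At 4 h every IFNAR-/- sample was below every WT sample, and at 14 h every IFNAR-/- sample was above every WT sample. Scarb2 rose in WT (0.75 ± 0.13, 1.68-fold, adjusted p = 1.67e-05) and PRR-/- DCs (0.67 ± 0.16, adjusted p = 0.00114) at 4 h and fell in WT DCs at 14 h (-0.42 ± 0.14, adjusted p = 0.0137). IFNAR-/- minus WT was -1.07 ± 0.16 (2.1-fold, adjusted p = 4.58e-06) at 4 h and 0.52 ± 0.18 (adjusted p = 0.0249) at 14 h.

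Cd63, a tetraspanin of late endosomes and lysosomes, showed the largest change of the 34 genes. It lay at 9.21 to 10.29 (median 9.87) in unstimulated, 9.49 to 10.30 (median 9.89) in WT 4 h and 12.52 to 13.60 (median 13.35) in WT 14 h samples. At 4 h PRR-/- samples held 9.47, 10.00, 9.83 and 8.98 and IFNAR-/- samples 10.29, 10.22, 10.64 and 9.76, and at 14 h IFNAR-/- samples held 11.31, 11.07 and 12.55. The 14 h samples of both genotypes were above all others, and IFNAR-/- replicate 3 reached the WT range of that time. Cd63 rose in WT DCs at 14 h by 3.37 ± 0.22 (10.4-fold, adjusted p = 9.73e-13) and in IFNAR-/- DCs by 1.84 ± 0.28 (3.58-fold, adjusted p = 2.45e-05), and IFNAR-/- minus WT was -1.53 ± 0.29 (2.89-fold, adjusted p = 0.000136). At 4 h its differences from unstimulated DCs were 0.05 ± 0.21 (adjusted p = 0.889) in WT, -0.24 ± 0.25 (adjusted p = 0.518) in PRR-/- and 0.42 ± 0.25 (adjusted p = 0.297) in IFNAR-/- DCs, none of which passed. Its further probes gave rises of 2.66 to 3.05 in WT DCs at 14 h.

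Lamp1, the other main glycoprotein of the lysosomal membrane, followed the same times. Its levels were 10.47 to 11.29 (median 10.87) in unstimulated, 10.76 to 11.10 (median 10.90) in WT 4 h and 12.30 to 13.64 (median 12.65) in WT 14 h samples. PRR-/- and IFNAR-/- samples at 4 h held 11.15, 11.04, 10.89 and 10.95 and 11.16, 11.24, 11.09 and 11.14, and IFNAR-/- samples at 14 h 12.35, 12.24 and 12.10. Both genotypes at 14 h exceeded all other samples and overlapped each other. The rise at 14 h was 1.78 ± 0.14 (3.44-fold, adjusted p = 4.86e-11) in WT and 1.30 ± 0.18 (2.45-fold, adjusted p = 6.36e-06) in IFNAR-/- DCs, and IFNAR-/- minus WT was -0.49 ± 0.19 (adjusted p = 0.0471), a call lost under 7 of the alternatives that leave out a sample. Mcoln1, the calcium channel mucolipin-1, fell in 4 groups (differences -0.40, -0.37 and -0.39 in WT, PRR-/- and IFNAR-/- DCs at 4 h and -0.33 in WT DCs at 14 h). At 4 h Mcoln1 was detected on 5 of 8 WT, 4 of 5 PRR-/- and 4 of 5 IFNAR-/- arrays. The sizes of its differences at 4 h are therefore limited by the floor.

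Npc2 binds cholesterol inside the lysosome and hands it on for export, and Psap is the precursor of the saposins, which help hydrolases reach membrane lipids. Npc2 was at 9.78 to 11.55 (median 10.63) in unstimulated, 10.71 to 12.54 (median 12.34) in WT 4 h and 12.47 to 13.40 (median 12.83) in WT 14 h samples. PRR-/- and IFNAR-/- samples at 4 h held 10.70, 12.41, 12.02 and 12.22 and 9.01, 10.46, 10.62 and 10.57, and IFNAR-/- samples at 14 h 10.96, 11.10 and 11.15. The first set was the lowest in each 4 h group, and at both times all IFNAR-/- samples were below all WT samples. Npc2 rose in WT DCs by 1.25 ± 0.30 (2.38-fold, adjusted p = 0.00101) at 4 h and 2.20 ± 0.33 (4.6-fold, adjusted p = 2.07e-06) at 14 h, and in PRR-/- DCs by 1.15 ± 0.37 (adjusted p = 0.0138). IFNAR-/- DCs did not pass against unstimulated DCs at 4 h (-0.52 ± 0.37, adjusted p = 0.406) or 14 h (0.38 ± 0.41, adjusted p = 0.707), and IFNAR-/- minus WT was -1.77 ± 0.37 (3.41-fold, adjusted p = 0.00046) and -1.82 ± 0.42 (3.53-fold, adjusted p = 0.00121). Psap fell in IFNAR-/- DCs at 4 h (-0.70 ± 0.23, adjusted p = 0.0311) and in WT DCs at 14 h (-0.83 ± 0.20, adjusted p = 0.00104).

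Of the V-ATPase genes Atp6v1d, Atp6v0a1 and Atp6v1b2 rose most, and each did so in a different pattern of groups. Atp6v1d, a subunit of the central stalk of V1, was at 10.53 to 11.21 (median 11.06) in unstimulated and 11.86 to 12.43 (median 12.19) in WT samples at 4 h. PRR-/- samples held 11.92, 12.28, 12.00 and 11.95 and IFNAR-/- samples 11.07, 10.92, 11.24 and 11.00 at 4 h. WT and PRR-/- samples were above all unstimulated and all IFNAR-/- samples. At 14 h its levels were 10.84 to 11.34 (median 11.21) in WT and 11.21, 11.23 and 11.32 in IFNAR-/- samples, below every WT sample at 4 h. Atp6v1d rose by 1.24 ± 0.098 (2.36-fold, adjusted p = 2.26e-11) in WT and 1.10 ± 0.12 (2.15-fold, adjusted p = 2.51e-08) in PRR-/- DCs, while in IFNAR-/- DCs the difference was 0.12 ± 0.12 (adjusted p = 0.6). IFNAR-/- minus WT was -1.12 ± 0.12 (2.17-fold, adjusted p = 2.11e-08) at 4 h, and WT DCs changed by -1.01 ± 0.10 (2.02-fold, adjusted p = 8.28e-09) from 4 to 14 h.

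Atp6v0a1, the a1 isoform of the large V0 subunit, was the V-ATPase gene with the largest rise, and IFNAR-/- DCs at 4 h had more of it than WT DCs. It took 7.99 to 8.63 (median 8.20) in unstimulated, 8.85 to 9.68 (median 9.17) in WT 4 h and 9.09 to 10.07 (median 9.79) in WT 14 h samples. Its levels were 8.65, 9.03, 9.03 and 8.56 in PRR-/- and 9.89, 10.37, 10.56 and 10.01 in IFNAR-/- samples at 4 h, and 9.10, 9.00 and 9.45 in IFNAR-/- samples at 14 h. All IFNAR-/- samples at 4 h were above all WT samples of that time, and only the PRR-/- samples overlapped the unstimulated range. The rise was 1.98 ± 0.17 (3.94-fold, adjusted p = 1.74e-09) in IFNAR-/-, 0.99 ± 0.14 (1.98-fold, adjusted p = 1.22e-06) in WT and 0.59 ± 0.17 (adjusted p = 0.0074) in PRR-/- DCs at 4 h, and 1.47 ± 0.15 (2.77-fold, adjusted p = 5.25e-09) in WT and 0.95 ± 0.19 (adjusted p = 0.000838) in IFNAR-/- DCs at 14 h. IFNAR-/- minus WT was 0.99 ± 0.17 (1.99-fold, adjusted p = 4.98e-05) at 4 h and -0.52 ± 0.20 (adjusted p = 0.044) at 14 h. A second, dim probe gave smaller differences of the same sign, 0.28 in IFNAR-/- DCs (passed) and 0.07 in WT DCs (did not pass) at 4 h.

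Atp6v1b2, the B subunit of the V1 catalytic ring found in most tissues, lay at 10.43 to 11.05 (median 10.75) in unstimulated, 10.87 to 11.35 (median 11.09) in WT 4 h and 11.04 to 11.77 (median 11.35) in WT 14 h samples. It was at 11.62, 11.49, 11.26 and 11.42 in PRR-/- and 10.84, 10.69, 10.88 and 10.54 in IFNAR-/- samples at 4 h and at 11.29, 11.30 and 11.08 in IFNAR-/- samples at 14 h. PRR-/- samples at 4 h and IFNAR-/- samples at 14 h were above the unstimulated range, and the other groups overlapped it. Atp6v1b2 rose by 0.36 ± 0.099 (adjusted p = 0.00299) in WT DCs at 4 h, a direction that turned without normalization between arrays (-0.11), by 0.70 ± 0.12 (adjusted p = 3.18e-05) in PRR-/- DCs and by 0.63 ± 0.11 (adjusted p = 1.45e-05) in WT DCs at 14 h. The V0 subunits Atp6v0b and Atp6v0d1 fell slightly in WT (differences -0.25 and -0.35) and PRR-/- DCs (-0.32 and -0.37), and in IFNAR-/- DCs at 4 h were above WT DCs by 0.45 and 0.41. Further Atp6v0d1 probes gave -0.20 to 0.12 in PRR-/- DCs, where none passed, and -0.36 to -0.06 in WT DCs, where 2 passed. The accessory subunit Atp6ap1 fell in WT and PRR-/- DCs at 4 h (-0.86 and -0.70), and Atp6v1h, a V1 subunit, in WT DCs at 4 h (-0.37). Atp6v1e1 and Atp6v1f, of the V1 stalks, fell in WT DCs at 14 h (-0.34 and -0.49). Atp6v1a, the catalytic A subunit, and Atp6v1c1 passed in none of the 10 comparisons.

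**Figure D3:**
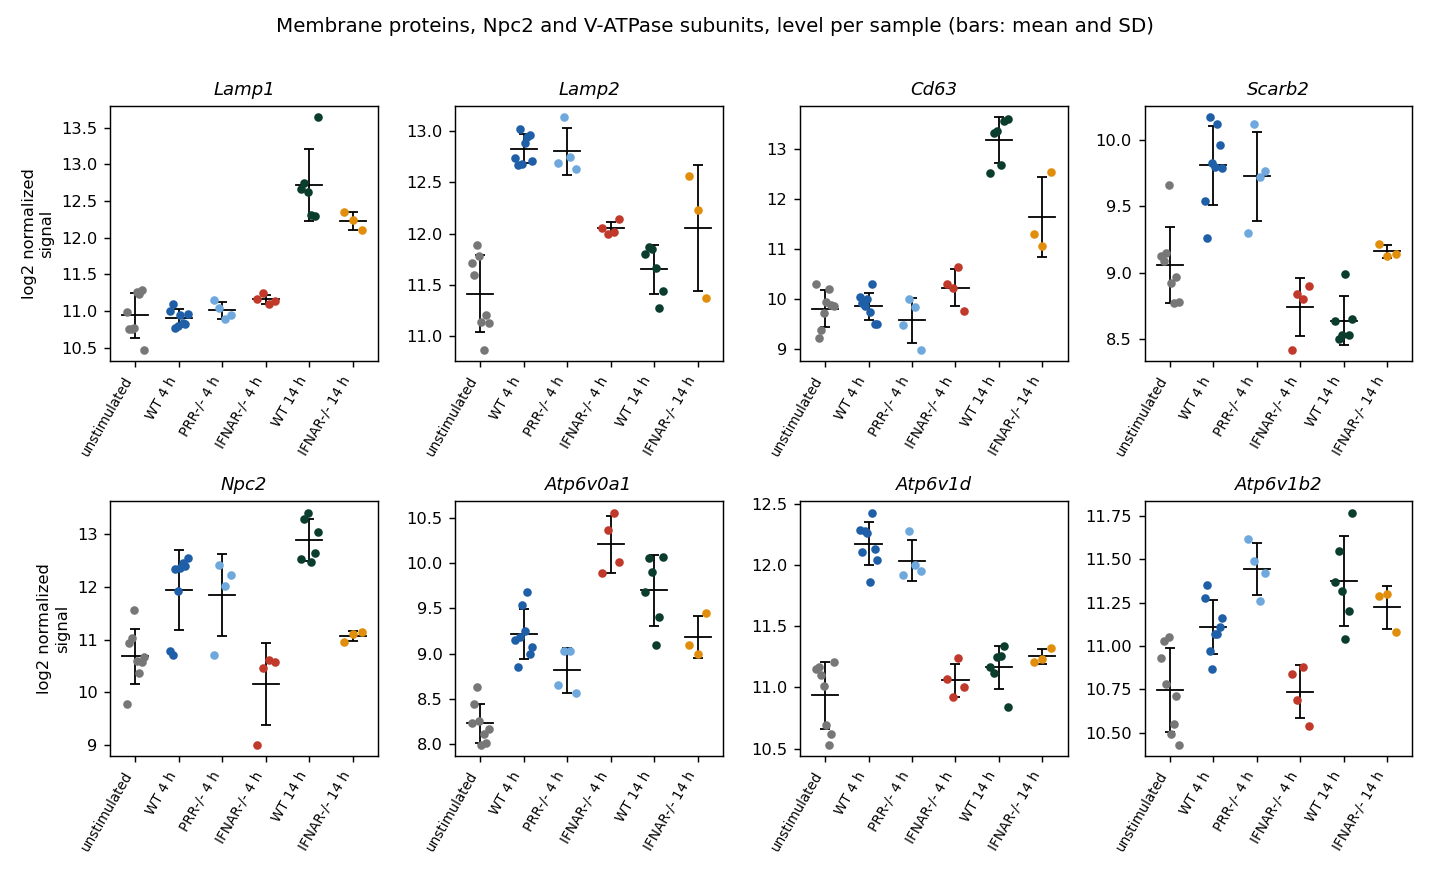
Log2 normalized signal (vertical axes, a scale of its own in each panel) of 4 membrane proteins, Npc2 and 3 V-ATPase subunits in every sample (dots) of the 6 groups, with the mean and SD in black. WT and PRR-/- samples at 4 h lie above all unstimulated and all IFNAR-/- 4 h samples for Lamp2 and Atp6v1d, IFNAR-/- samples lie highest at 4 h for Atp6v0a1, and Cd63 and Lamp1 are raised only in the 14 h groups.

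To ask what the missing RNA sensors changed, PRR-/- DCs were compared with the WT DCs at 4 h. None of the 34 genes passed by limma, against 56 genes of 9606 (0.583%; 0.333% higher and 0.25% lower). At an unadjusted p under 0.05 there were 3. The methods' t-test and every other setting but 1 also gave 0, and treating the sets as a block gave 1 that fell. The differences ran from -0.55 to 0.34 with a median of 0.004. For the 6 genes that moved most in WT DCs at 4 h, the 95% intervals of the difference were -0.39 to 0.34 for Lamp2, -0.55 to 0.41 for Gusb, -0.27 to 0.46 for Manba, -0.85 to 0.66 for Npc2, -0.38 to 0.11 for Atp6v1d and -0.33 to 0.37 for Man2b1, so that differences of these sizes remain possible. The red pulp macrophage markers did differ here: 5 of 16 were higher in PRR-/- DCs, with a median of 0.75.

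The interferon receptor was addressed by comparing IFNAR-/- with WT DCs at each time. At 4 h 7 genes were higher and 6 lower in IFNAR-/- DCs (16.1% and 9.75% of all genes). All 13 kept their direction within each of the 3 sets, which hold the same samples on which they were called. Higher were the hydrolases Hexa, Manba, Smpd1 and Tpp1 and the V0 subunits Atp6v0a1, Atp6v0b and Atp6v0d1; lower were Lamp2, Scarb2, Npc2, Gaa, Atp6v1b2 and Atp6v1d, of which Npc2, Atp6v1d and Scarb2 by at least 2-fold (3.8% of all genes, with 0.822% higher by as much). The split was 6 and 7 under median scaling and 8 and 4 without normalization. The groups did not overlap for 5 genes that were higher and 4 that were lower, where this held for 11.6% and 7.19% of all genes. Not all V0 subunits shared this direction. Outside the 34 genes, Atp6v0a2 and Tcirg1, other isoforms of the a subunit, were lower in IFNAR-/- DCs by 1.24 ± 0.14 (adjusted p = 4.51e-08) and 0.82 ± 0.11 (adjusted p = 1.62e-06), and Atp6v0e did not pass (0.31 ± 0.15, adjusted p = 0.129). Plasmacytoid DC markers moved in this comparison: 3 of 5 tested (Bst2, Tcf4 and Pacsin1) were lower and 0 higher in IFNAR-/- DCs, and their sums were 1625 to 2223 against 4539 to 7624 in WT samples (2324 to 7886 in unstimulated). Siglech, a defining marker of these cells, did not pass (-0.14 ± 0.34, adjusted p = 0.85). Of monocyte markers 2 of 6 were lower, and of red pulp macrophage markers 2 of 16. Their part in the differences of the lysosomal genes was not tested.

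At 14 h 9 genes were higher and 6 lower in IFNAR-/- than in WT DCs (17.9% and 15.3% of all genes). Those higher were Hexa, Lipa, Manba, Tpp1, Man2b1, Glb1, Scarb2, Atp6v1e1 and Atp6v1f, so that 6 of 16 hydrolases stood higher in IFNAR-/- DCs; those lower were Lgmn, Npc2, Cd63, Gaa, Lamp1 and Atp6v0a1. The groups did not overlap for 6 higher and 3 lower genes (15.1% and 12.2%). Hexa, Lipa and Manba were higher and Lgmn, Npc2 and Cd63 lower by at least 2-fold (4.71% and 4.92%). Without normalization between arrays the split was 20 and 4, and without IFNAR-/- 14 h replicate 1 only 9 genes passed. Monocyte markers differed in this comparison too: all 6 of those tested were higher, with a median difference of 2.1. Their sums were 35630 to 41070 against 1154 to 6851 in WT samples. Ccr2 was undetected in every group. Of red pulp macrophage markers 7 of 16 were higher and 0 lower, with sums of 11540 to 15900 against 8635 to 14310. C1qa was detected on 3 of 3 and 3 of 6 arrays, and Cd5l on no array of any group. Of neutrophil markers 7 of 10 were higher (3627 to 13870 against 1063 to 3358). Of 12 conventional DC markers 1 was higher and 2 lower (median -0.16). The sums of these markers, at 11000 to 13630, were lower than the 15600 to 19120 of WT samples, while their mean log2 levels were close (9.29 and 9.35). The part of all these markers in the differences of the lysosomal genes was not tested.

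Whether the IFNAR-/- effect differed between the times was tested as an interaction, the effect at 14 h minus that at 4 h. It was positive for 5 and negative for 4 of the 34 genes (7.67% and 9.55% of all genes). Scarb2 (1.59 ± 0.24, adjusted p = 1.63e-05), Atp6v1d (1.21 ± 0.18, adjusted p = 1.74e-05) and Lamp2 (1.17 ± 0.27, adjusted p = 0.00223) were lower in IFNAR-/- DCs at 4 h and not at 14 h by the probes used. Of the other Lamp2 probes only 1 shared the interaction call (0.44 to 1.23). IFNAR-/- minus WT at 14 h ran from -0.70 to 0.35 among them. Hexa (0.89 ± 0.25, adjusted p = 0.0128) and Atp6v1e1 (0.51 ± 0.14, adjusted p = 0.0106) were further above WT DCs at 14 h than at 4 h. On the negative side stood Cd63 (-1.91 ± 0.39, adjusted p = 0.000662), Lgmn (-1.82 ± 0.37, adjusted p = 0.000761), Atp6v0a1 (-1.51 ± 0.26, adjusted p = 0.000114) and Lamp1 (-0.74 ± 0.25, adjusted p = 0.0397), all 4 of them lower in IFNAR-/- DCs at 14 h. Npc2 was lower in IFNAR-/- DCs by a like amount at both times (interaction -0.05 ± 0.56, adjusted p = 0.984, 95% interval -1.20 to 1.10). All 14 h samples lay outside the 3 sets, so time and set cannot be told apart in this contrast.

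**Figure D4:**
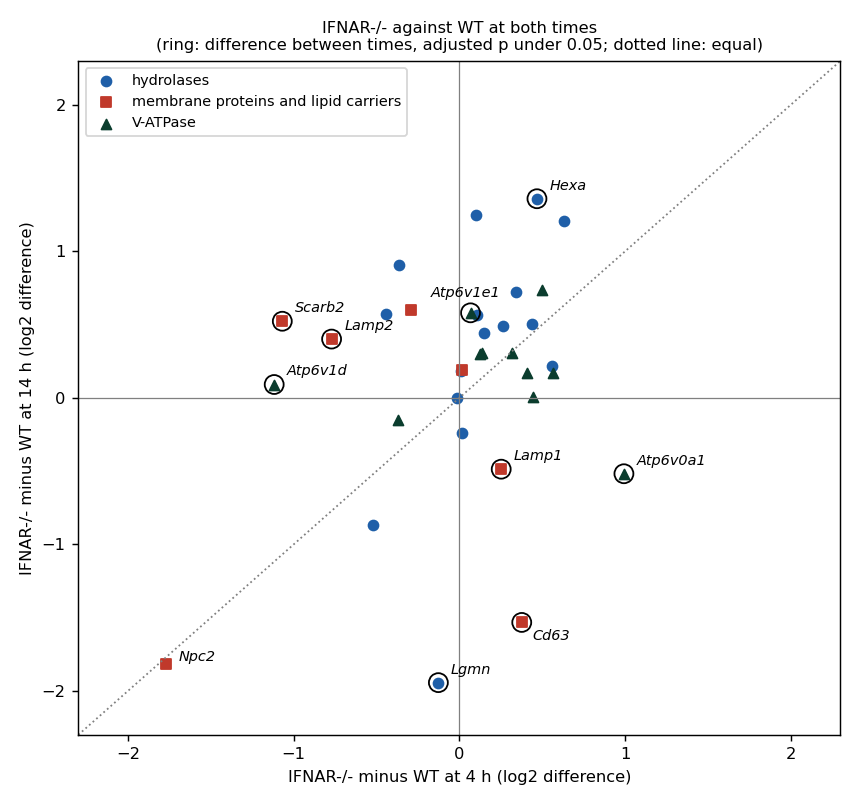
Log2 difference of IFNAR-/- minus WT DCs at 4 h (horizontal) and 14 h (vertical) for the 34 genes, by class; the dotted line marks equal differences and a ring an adjusted p under 0.05 for the difference between times. Scarb2, Lamp2 and Atp6v1d lie left of 0 and above the line, Cd63, Lgmn, Lamp1 and Atp6v0a1 below it, and Npc2 on it at -1.77 and -1.82.

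Between 4 and 14 h 12 genes rose and 6 fell in WT DCs (20.7% and 16.6% of all genes), 11 and 8 under median scaling and 18 and 4 without normalization. With the sets as a block 9 rose and 3 fell. All 4 h samples lay inside the sets and all 14 h samples outside them, so time and set cannot be told apart in either genotype here. Cd63 (3.32 ± 0.22, 10-fold, adjusted p = 1.26e-12), Lamp1 (1.81 ± 0.14, 3.52-fold, adjusted p = 4.19e-11) and Lgmn (1.58 ± 0.21, 2.99-fold, adjusted p = 8.83e-07) rose most and Ppt1 (-1.58 ± 0.41, 2.99-fold, adjusted p = 0.00278), Lamp2, Scarb2 and Atp6v1d fell at least 2-fold (3.26% and 3.07% of all genes). In IFNAR-/- DCs 8 rose and 1, Atp6v0a1, fell (4.94% and 2.63%), among them Lipa (1.68 ± 0.37, 3.2-fold, adjusted p = 0.00367), Cd63 (1.42 ± 0.32, 2.67-fold, adjusted p = 0.00376) and Lamp1 (1.08 ± 0.20, 2.11-fold, adjusted p = 0.000656), each by over 2-fold as was the fall (1.42% and 0.541%). This count was 20 and 0 without normalization, and 5 genes passed when the sets were a block or without IFNAR-/- 14 h replicate 1 or 2. Hexa, Man2b1, Manba and Tpp1 were the other hydrolases that rose with time in IFNAR-/- DCs, by 0.78 to 0.85.

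Of 77 further lysosomal genes listed, 59 were tested, among them 16 hydrolases and activators. Of these 16, 8 fell and 2 rose in WT DCs at 4 h (29.6% and 16.9% of all genes), 6 and 2 in PRR-/- DCs (24.2% and 13.1%) and 7 and 1 in IFNAR-/- DCs (11% and 6.97%). Over all 59 the counts that rose and fell were 12 and 20 in WT, 11 and 17 in PRR-/- and 2 and 12 in IFNAR-/- DCs at 4 h, and 14 and 20 in WT (19.6% and 27.7% of all genes) and 9 and 2 in IFNAR-/- DCs at 14 h (5.32% and 5.41%). In WT DCs at both times these shares were near those of all genes. Cln3, a lysosomal membrane protein, resembled Lamp2 and Scarb2 in time and genotype: it rose at 4 h in WT (1.65 ± 0.11, 3.14-fold, adjusted p = 4.74e-13) and PRR-/- DCs (1.30 ± 0.13, 2.46-fold, adjusted p = 8.23e-09), was lower in IFNAR-/- than in WT DCs at that time (-1.82 ± 0.13, 3.53-fold, adjusted p = 1.03e-11) and its interaction was 2.00 ± 0.20 (adjusted p = 2.15e-08). Grn, progranulin, a regulator of lysosomal function, rose at 4 h in WT (0.90 ± 0.15, adjusted p = 1.27e-05) and PRR-/- DCs (1.01 ± 0.18, adjusted p = 6.66e-05) and fell in IFNAR-/- DCs (-1.02 ± 0.18, adjusted p = 0.000155), and in WT DCs it was also raised at 14 h (1.04 ± 0.16, adjusted p = 4.28e-06). Atp6v0a2, another isoform of the a subunit, went opposite to Atp6v0a1 between genotypes, with IFNAR-/- minus WT at -1.24 ± 0.14 (adjusted p = 4.51e-08) at 4 h. Tpcn1, a lysosomal cation channel, fell in all 3 groups at 4 h (differences of -1.58 to -1.70). At 14 h Laptm4b and Gga3, a sorting adaptor, rose in WT DCs, by 2.35 ± 0.33, 5.09-fold, adjusted p = 8.1e-07 and by 2.15 ± 0.16, 4.42-fold, adjusted p = 8.61e-12, whereas Slc11a1, a metal transporter of phagosomes known in macrophages, was higher in IFNAR-/- than WT DCs (2.33 ± 0.29, 5.02-fold, adjusted p = 4.61e-07), as was Pla2g15, lysosomal phospholipase A2 (1.83 ± 0.28, 3.55-fold, adjusted p = 8.46e-06).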

How the data were processed

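The authors extracted signal intensity and a detection p-value per probe from the bead arrays with BeadStudio and deposited both without normalization; a second deposited table holds their processed log2 values, background-floored, quantile normalized and centred on the median of all samples per the methods (array medians -0.00562 to 0.0105, correlation per array with the values used here 0.967 to 0.99), and was used only as an alternative. Depth is given by the number of arrays and of detected probes.

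From the intensities, a floor was set on each array at its lowest detected signal (detection p under 0.05); the values were then log2 transformed and quantile normalized over 36 arrays. Probes detected on at least 3 arrays were kept (14202 of 25697), 1 symbol each, and the brightest kept probe stood for its gene (50 kept probes of 51 for these genes; 9 genes had more than 1). limma 3.58.1 in R 4.3.3 fitted all 6 groups in 1 model, after a test on simulated data, with Benjamini-Hochberg adjustment at 0.05 and a second limit of 2-fold. All comparisons with unstimulated DCs share those samples. Of 160 comparisons of a further probe with the one used, 120 gave the same call and 0 the opposite one. Values in every sample were given for genes changed 2-fold in any of the 10 comparisons, the 3 genes of each class with the smallest overall p, and Lamp2. Genes and lists were chosen with earlier results of these data known.

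Replicate numbers recur across groups. Same-numbered samples deviated together in each of 4 pairs of PRR-/- (correlations 0.124 to 0.688) and of IFNAR-/- samples at 4 h (0.317 to 0.741) with unstimulated samples. With WT samples at 4 h the correlations were 0.0169 to 0.921 for PRR-/- and -0.087 to 0.904 for IFNAR-/- samples, lowest for replicate 5 in both. Every other comparison held a negative correlation. The numbers were read as pairing in the first 2 comparisons only. WT and knockout DCs of 1 chimera may be paired too, and the main fit used no pairing. With the replicate number as a block 9 genes were higher and 6 lower in IFNAR-/- than in WT DCs at 4 h. With the replicate number as a block 7 rose and 14 fell in PRR-/- and 2 rose and 11 fell in IFNAR-/- DCs. Alternatives covered scaling, background (neqc, offset 16), the filter, averaging of arrays, the test, the probe rule, a 2-fold limit and leaving out each sample. The sets of samples, as a block or taken singly, and leaving out unstimulated replicates 6 to 9 were added after seeing the data.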

Additional observations from a re-analysis of the deposited data

Results flagged for a closer look

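In 5 of 90 groups of 4 or more samples tested over the genes given per sample, 1 sample stood apart from the rest of its group by Dixon's test, and chance gives about 1 in 20. Gaa was at 8.529 in WT 4 h replicate 8, below the other samples of that group. Lamp1 was at 13.64 in WT 14 h replicate 6, against at most 12.75 in the others. Npc2 was at 9.013 in the averaged IFNAR-/- 4 h replicates 1 and 2, where the others began at 10.46. Scarb2 was at 9.663 in unstimulated replicate 5 and at 8.993 in WT 14 h replicate 4, in each case above the rest.

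The IFNAR-/- effect (IFNAR-/- minus WT) differed between 14 and 4 h by limma's interaction test for 9 of the 34 genes. The log2 difference between the effects was positive for Scarb2 (1.592), Atp6v1d (1.209), Lamp2 (1.173), Hexa (0.8912) and Atp6v1e1 (0.5131), and negative for Cd63 (-1.909), Lgmn (-1.817), Atp6v0a1 (-1.511) and Lamp1 (-0.7393). Leaving out 1 sample at a time gave between 7 and 12 such genes.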

How the results depend on the processing

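Counts are of the 34 genes that changed in either direction. With a 2-fold limit added they were 8 (WT), 7 (PRR-/-) and 4 (IFNAR-/-) at 4 h and 10 (WT) and 3 (IFNAR-/-) at 14 h against unstimulated DCs, 3 and 6 for IFNAR-/- against WT DCs at 4 and 14 h, and 7 (WT) and 4 (IFNAR-/-) between the times. No normalization between arrays gave 24 in place of 15 for IFNAR-/- against WT DCs at 14 h and 20 in place of 9 for IFNAR-/- DCs between the times. The methods' t-test gave 9, 5 and 3 for IFNAR-/- against WT DCs at 14 h, IFNAR-/- DCs at 14 h against unstimulated and IFNAR-/- DCs between the times, where limma gave 15, 9 and 9. For the last, limma on the 2 groups alone and the sets of samples as a block both gave 5, and for PRR-/- against WT DCs the sets gave 1 in place of 0. Without unstimulated replicates 6 to 9, 19 in place of 26 changed in WT, 16 in place of 22 in PRR-/- and 6 in place of 14 in IFNAR-/- DCs at 4 h. Leaving out each sample in turn gave 22 to 26 (WT), 18 to 24 (PRR-/-) and 9 to 14 (IFNAR-/-) at 4 h, 21 to 24 (WT) and 4 to 9 (IFNAR-/-) at 14 h, 0 to 0 for PRR-/- and 10 to 13 for IFNAR-/- against WT DCs at 4 h, 9 to 17 at 14 h, 16 to 19 (WT) and 5 to 9 (IFNAR-/-) between the times, and 7 to 12 for the interaction; the low values came without IFNAR-/- 14 h replicate 1 (4, 5 and 9), IFNAR-/- 14 h replicate 2 (5 between the times) and IFNAR-/- 4 h replicate 5 (9). For genes given per sample, 3 results turned their sign, all in WT DCs at 4 h without normalization between arrays: Atp6v1b2 (-0.1119), Cd63 (-0.5451) and Gaa (-0.1875). Over leave-one-out settings 2013 of their results kept direction and side of the threshold, 117 lost the call, 12 gained one and 0 turned. The replicate number as a block (26 in WT DCs at 4 h, 10 that rose and 16 that fell) moved no count by more than 1.5 times; it cost 9 results of single genes their call and gave one to 8. The causes were not tested. Signal near the floor limits Fuca1 most, and also Mcoln1, Tpp1 and Gla, and 3 samples limit the IFNAR-/- group at 14 h.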

Other observations

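The spread between samples of 1 group was larger for the lysosomal genes than for genes in general. The median SD of the 34 genes against that of all 9606 genes was 0.246 and 0.192 in unstimulated DCs, 0.202 and 0.179 in WT, 0.235 and 0.181 in PRR-/- and 0.18 and 0.155 in IFNAR-/- DCs at 4 h, and 0.336 and 0.22 in WT and 0.186 and 0.136 in IFNAR-/- DCs at 14 h. These are descriptions with no test. Genes whose values were raised to the floor have little spread, as Fuca1 did (SD of 0 in PRR-/- DCs at 4 h). The 34 genes and all genes were not matched for signal level, whose part was not tested. Among the further genes, Acp2, lysosomal acid phosphatase, rose at 4 h in WT (0.6761, adjusted p = 0.000166), PRR-/- (1.115, adjusted p = 5.52e-06) and IFNAR-/- DCs (0.8753, adjusted p = 0.000354) and at 14 h in WT (0.3557, adjusted p = 0.05, just under the threshold before rounding) and IFNAR-/- DCs (1.383, adjusted p = 3.43e-06), by limma against unstimulated DCs. Lamtor4, a subunit of the Ragulator complex on the lysosomal surface, fell at 4 h in WT (-1.386, adjusted p = 0.000273) and PRR-/- DCs (-1.312, adjusted p = 0.00468) and in WT DCs at 14 h (-1.803, adjusted p = 2.67e-05) and was higher in IFNAR-/- than in WT DCs at 14 h (2.356, adjusted p = 5.53e-05).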
